A study of Mus musculus with 4 samples.

Results

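The 59 genes described here were on in hair follicle stem cells (HFSCs) after 10 passages and off, or nearly so, after 48 passages. They were chosen by their measured values, as rows with an FPKM above 5 in both libraries of 10p-HFSCs and under 0.1 in both libraries of 48p-HFSCs. FPKM counts sequenced fragments per kilobase of exon, scaled to the number of mapped fragments. Of the 24346 gene rows, 65 met these limits, and 6 of them (Col1a2, Egln3, Hoxa9, Krt23, Phlda2 and Rps4l) were set aside by name, as single genes or members of large symbol families. Because the limits compare 10p- with 48p-HFSCs, the difference between the groups in these 59 genes is a description and carries no test. For scale, 9.15% of all 11018 genes tested were called lower in 48p-HFSCs (limma, as given with the relatives), and nothing is read from the set's values against that share.

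HFSCs of C3H/HeN mice were sorted from the dorsal skin of 4-week-old animals as cells positive for CD49f and CD34 and were grown in the serum-free medium M-CnT with a passage each week. The labels name no transgene or agent, and the groups differed in the number of passages, 10 or 48. Polyadenylated RNA of 2 libraries per group was sequenced. Whether the libraries of a group came from separate cultures is not stated, so that the p-values measure only the spread between these libraries, which may be technical.

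Hair follicle stem cells reside in the bulge of the follicle and rebuild its lower part in each growth phase. Wnt ligands, read by Frizzled receptors with Lrp5 or Lrp6 as co-receptors, start this regrowth, and transcription factors of the Sox, Lhx and Iroquois families take part in the identity of skin epithelium. Stem cells kept in culture divide far more often than in the follicle, and CpG dinucleotides, the sites of DNA methylation, are dense in many promoters.

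The sequences upstream of 4 of the genes are shown as examples that differ in CpG content, and some genes of the set had more CG than any shown. Each is the 250 bases before the most upstream RefSeq start of the gene in build GRCm38.p6, read 5′ to 3′ on the strand of the gene, with each CG in capitals. The window of Pacs1 is chr19:5273120-5273369 (minus strand), that of Sox2 is chr3:34649745-34649994 (plus strand, inside the longer transcript Sox2ot), that of Fzd1 is chr5:4758217-4758466 (minus strand) and that of Hsd3b6 is chr3:98814444-98814693 (minus strand).
Pacs1: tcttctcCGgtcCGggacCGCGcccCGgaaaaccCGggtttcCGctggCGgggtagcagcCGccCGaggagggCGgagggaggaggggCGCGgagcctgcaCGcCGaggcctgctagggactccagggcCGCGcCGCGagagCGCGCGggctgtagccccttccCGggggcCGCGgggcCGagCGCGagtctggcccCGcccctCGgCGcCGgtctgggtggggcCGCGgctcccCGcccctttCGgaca
Sox2: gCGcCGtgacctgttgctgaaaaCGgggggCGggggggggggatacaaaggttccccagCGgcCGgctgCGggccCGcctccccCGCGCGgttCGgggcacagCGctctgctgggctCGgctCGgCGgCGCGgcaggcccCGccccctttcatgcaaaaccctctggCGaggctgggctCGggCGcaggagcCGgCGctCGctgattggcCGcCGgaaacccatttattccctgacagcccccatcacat
Fzd1: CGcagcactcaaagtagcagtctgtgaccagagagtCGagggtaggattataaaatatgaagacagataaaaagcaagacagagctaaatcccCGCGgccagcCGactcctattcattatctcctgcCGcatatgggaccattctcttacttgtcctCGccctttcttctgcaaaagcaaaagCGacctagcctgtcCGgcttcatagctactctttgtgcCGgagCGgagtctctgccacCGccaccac
Hsd3b6: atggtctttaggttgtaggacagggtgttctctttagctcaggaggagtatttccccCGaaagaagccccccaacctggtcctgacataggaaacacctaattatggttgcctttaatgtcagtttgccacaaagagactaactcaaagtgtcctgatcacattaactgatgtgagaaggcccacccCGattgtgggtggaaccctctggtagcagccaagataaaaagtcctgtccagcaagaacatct
The number of CG was 36 in the window of Pacs1, 27 in that of Sox2, 12 in that of Fzd1 and 2 in that of Hsd3b6. The letters TATAAA occurred once among the printed strands, starting at base 49 of the Fzd1 window.

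One of the genes is a miRNA, Mir8091, whose hairpin lies at chr19:41588651-41588789 on the plus strand, between Lcor and Slit1. The mature RNA from RefSeq is shown with its seed, bases 2 to 8, in capitals, since the seed is the part that pairs with targets.
mmu-miR-8091: aGGAGUGAgugguaagcuggug
In 10p-HFSCs its row stood at FPKM values of 58.3 (replicate 1) and 16.3 (replicate 2), and at 0 in both 48p libraries. The 10p libraries thus differed more in this row than in any other of the set. Libraries of polyadenylated RNA do not measure mature miRNAs, and FPKM values of rows this short are unstable: of the 19 rows that were above 5 in one library of 10p-HFSCs and under 0.1 in the other, 17 were short non-coding RNAs, as were 18 of 24 such rows in 48p-HFSCs.

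The depth of the libraries is not known from FPKM values, but the commonest ratio between low values gave their relative depth. Against the first 10p library, the second stood at 71.6%, and the 48p libraries at 82.9% (replicate 1) and 46.7% (replicate 2). The FPKM values of all rows summed to 581516 and 719012 in 10p- and to 666018 and 1414950 in 48p-HFSCs. The main limma fit and the summed marker levels below were not rescaled to these totals. Of 16 keratinocyte markers, 14 were at 5 FPKM or more in both 10p and 14 in both 48p libraries, and 2 were at 0 in all. Krt5 lay between 1473 and 8156 FPKM and Krt14 between 1217 and 3896. The summed level of the 16 was 4940 and 4117 in 10p- and 14885 and 10018 in 48p-HFSCs. Of 14 tested, Itga6, Itgb4, Sfn and Lamb3 were called higher in 48p-HFSCs by limma (28.6%, beside 10.8% of all genes) and 0 lower. Of 16 markers of hair follicle stem cells, 5 were at 5 FPKM or more in both 10p and 4 in both 48p libraries, and their summed level was 106 and 112 in 10p- and 58.5 and 49.4 in 48p-HFSCs. Sox9, Tcf3 and Tcf4, 3 of the 5 tested, were called lower in 48p-HFSCs by limma and 0 higher, beside 9.15% and 10.8% of all genes. Of the others, Cd34 lay between 0.093 and 0.234 FPKM, Lgr5 between 0 and 0.030 and Lhx2 between 0 and 0.024. Sox9 was at 45.6 and 44.2 in 10p- and 20.2 and 8.31 in 48p-HFSCs, and its call was lost with no filter on low values. The summed level of 16 fibroblast markers was 594 and 709 in 10p- and 1389 and 1217 in 48p-HFSCs, but its genes went in opposite directions. Of the 4 tested, Vim (284 and 327, then 2.35 and 3.08) and Col1a2 were called lower, and S100a4 (240 and 320, then 1378 and 1205) and Mfap5 higher, with a median log2 difference of -1.90, while Dcn, Lum and Thy1 were at 0 in all libraries. The summed level of 10 leukocyte markers was 2.13 in each 10p library and 68.4 and 107 in 48p-HFSCs, mostly through Cd74. In these bulk samples, fewer cells of a type and less RNA per cell cannot be told apart, and the part of other cell types in the results was not tested.

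In 10p-HFSCs the 59 genes were of low to middle level. Their mean FPKM had a median of 9.38 (quartiles 7.25 and 13.4), against 19.99 for the 7677 other rows above 5 in both 10p libraries, and 6 of them had a mean over 20. The 10p replicates differed by a median factor of 1.18 in the set and 1.17 in the other rows, and by over 1.5 in 7 of 59 genes (11.9%) and 9.96% of the other rows. In 48p-HFSCs, 41 genes were listed at 0 in both libraries, 13 in one library and 5 in neither. Of the 13, 11 were above 0 only in replicate 1, the deeper 48p library, and 2 (Mbd1 and Rgs16) only in replicate 2. The 23 values above 0 among the 118 of 48p-HFSCs ranged from 0.012 to 0.098. A value of 0 gives the level in these files and not the absence of the transcript, since the read totals are not known.

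**Figure D1:**
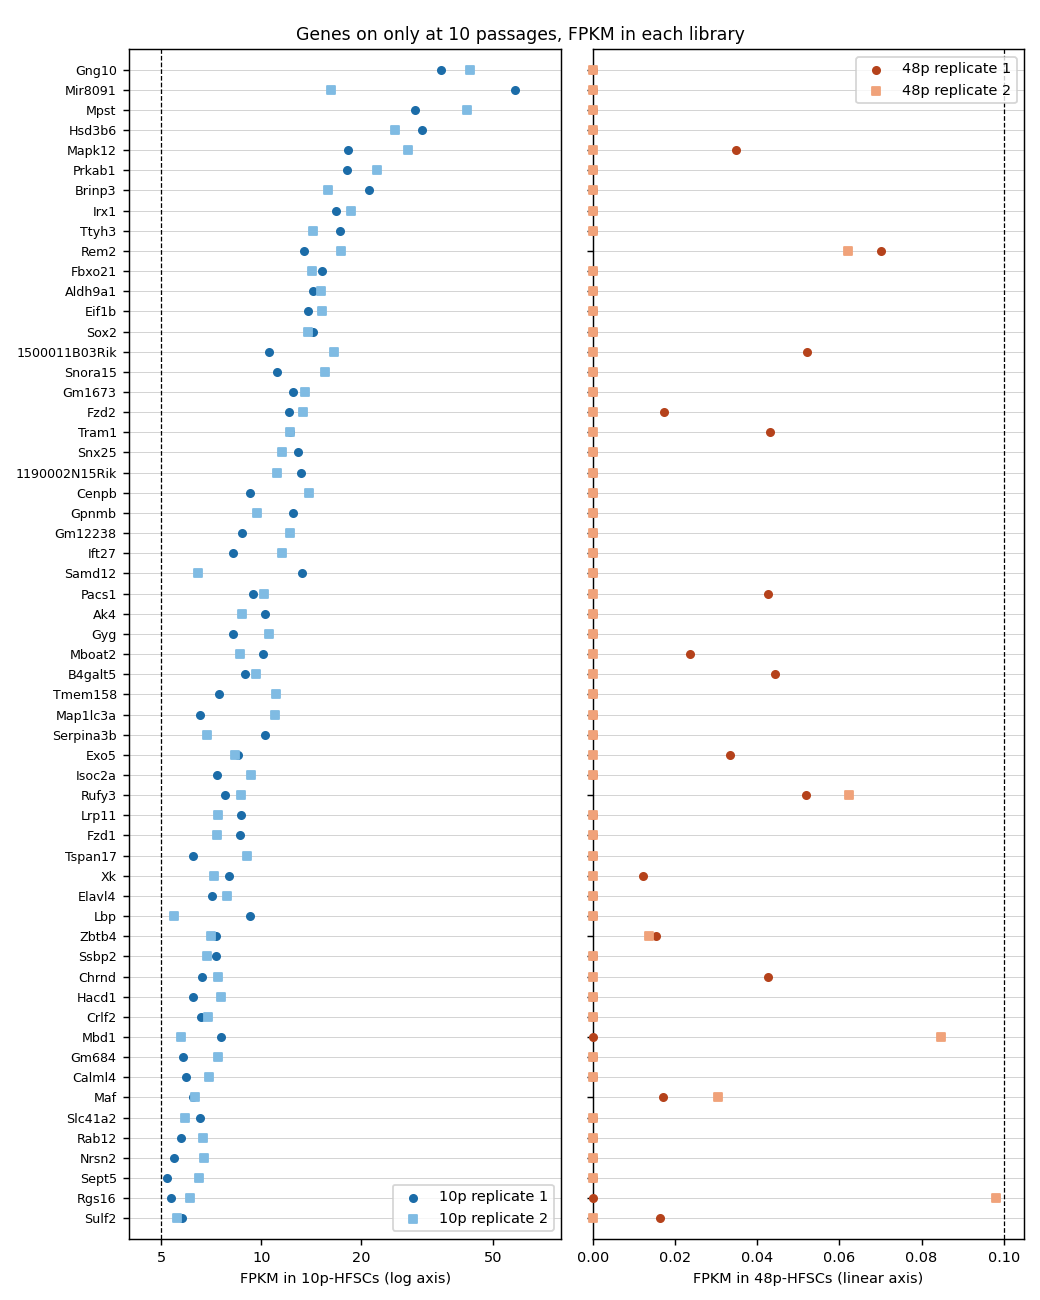
FPKM of 58 of the 59 genes in each library, ordered by their mean in 10p-HFSCs, with 10p-HFSCs on a log axis (left) and 48p-HFSCs on a linear axis from 0 (right). Circles are replicate 1, squares replicate 2, and dashed lines the limits of 5 and 0.1 that chose the genes. The 10p values run from 5.19 to 58.3, and 41 genes are at 0 in both 48p libraries.

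The limits fall within a continuous range of values. Just inside the upper limit were Sept5, with 5.19 and 6.51 FPKM in 10p-HFSCs, and Rgs16, with 5.34 and 6.08. Just outside it were Cdr2l, with 4.98 and 5.82, and Prkcdbp, with 4.87 and 9.36, both at 0 in 48p-HFSCs. At the lower limit, Rgs16 reached 0.098 in a 48p library and was kept, while Teddm3, at 0.109, and Gtpbp10, at 0.115, were not. The mirror set, above 5 in both 48p and under 0.1 in both 10p libraries, held 60 rows with all names counted.

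Of the 59 genes, 7 act in transcription or on chromatin. Irx1, an Iroquois homeobox factor of tissue patterning, was at 16.8 and 18.6 FPKM in 10p-HFSCs and at 0 in both 48p libraries. Sox2, a factor of pluripotent and neural progenitor cells that is also made in the dermal papilla and in Merkel cells, was at 14.3 and 13.8 and then at 0. The groups did not overlap in either gene, as the limits require.

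Sox2 is also a marker of other skin cells, and the part of such cells in its values was not tested. Of the other 9 dermal papilla markers none exceeded 0.231 FPKM in any library. Of the other Merkel cell markers, Atoh1 and Chga were at 0 throughout, while Isl1 was above 5 in every library, between 5.05 and 8.70. The remaining markers, Krt20 and Syp, were not at 5 or more in both libraries of either group. Of the Merkel cell markers other than Sox2, 2 were tested, with 0 called lower and 0 higher. Sox2ot, the longer transcript that contains Sox2, was at 0.035 in one 10p library and at 0 in the others.

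Mbd1 and Zbtb4 bind methylated CpG. Mbd1 was at 7.54 and 5.72 FPKM in 10p- and 0 and 0.085 in 48p-HFSCs, and Zbtb4 at 7.28 and 7.05, then 0.015 and 0.014. Their fellow methyl-CpG readers did not pass the test, among them Mbd2, with 38.4 and 41.0 in 10p- and 48.1 and 71.7 in 48p-HFSCs. Maf, a leucine zipper transcription factor, was at 6.23 and 6.31 and then at 0.017 and 0.030. Cenpb, which binds centromeric satellite DNA, was at 9.25 and 13.9, and Ssbp2, a partner of LIM-domain complexes, at 7.30 and 6.84, both with 0 in 48p-HFSCs.

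The 18 genes of receptors, signalling and the membrane include a pair of Wnt receptors. Fzd2 was at 12.1 and 13.3 FPKM in 10p- and at 0.017 and 0 in 48p-HFSCs. Fzd1 was at 8.60 and 7.36 and then at 0. Both receive Wnt ligands at the cell surface.

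Gng10, a gamma subunit of heterotrimeric G proteins at chr4:59035088-59041903, had the highest mean of the set, with 34.7 and 42.6 FPKM in 10p-HFSCs and 0 in both 48p libraries. Rgs16, which speeds the shut-off of G protein alpha subunits, was at 5.34 and 6.08, then 0 and 0.098. Rem2, a small GTPase of the RGK group, was at 13.4 and 17.4, then 0.070 and 0.062. It was one of the 5 genes above 0 in all 4 libraries, as were Rufy3, Maf and Zbtb4.

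Among kinases, Mapk12, the gamma isoform of p38, was at 18.2 and 27.7 FPKM in 10p- and 0.035 and 0 in 48p-HFSCs. Prkab1, the beta 1 subunit of AMP-activated protein kinase, was at 18.2 and 22.3 and then at 0. The next genes are chains of receptors for ligands outside the Wnt family. Crlf2, a chain of the receptor of the cytokine TSLP, was at 6.57 and 6.92 and then at 0, and Chrnd, the delta subunit of the muscle acetylcholine receptor, at 6.64 and 7.41, then 0.043 and 0. Among the rest, Ttyh3 was the highest, with 17.3 and 14.4 and then 0. The membrane protein Gpnmb, Tmem158, Lrp11, Tspan17, Xk, Calml4 and the magnesium transporter Slc41a2 had 10p values between 5.89 and 12.4, and of these 7 genes Xk alone was above 0 in a 48p library, at 0.012.

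The 10 metabolic enzymes included 3 of the 12 highest genes of the set. Mpst, a sulfurtransferase that yields hydrogen sulfide from cysteine breakdown, was at 29.0 and 41.5 FPKM in 10p-HFSCs and at 0 in both 48p libraries. Hsd3b6, a steroid dehydrogenase, was at 30.5 and 25.4 and then at 0. Aldh9a1, an aldehyde dehydrogenase of carnitine synthesis, was at 14.3 and 15.1 and then at 0.

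The other enzymes act on nucleotides, lipids and sugars. Ak4, an adenylate kinase of mitochondria, was at 10.2 and 8.76 FPKM, and Gyg, which primes glycogen, at 8.24 and 10.5, both with 0 in 48p-HFSCs. Mboat2, B4galt5, Isoc2a, Hacd1 and Sulf2 had 10p values between 5.58 and 10.1. Mboat2, B4galt5 and Sulf2 were above 0 in replicate 1 of 48p-HFSCs, at 0.024, 0.044 and 0.016. Hsd3b6 and Isoc2a have near-identical copies, and reads could be split among them.

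Proteins of traffic, RNA handling, repair and secretion made up 16 genes. Brinp3 was the highest, with 21.2 and 15.9 FPKM in 10p- and 0 in 48p-HFSCs. Fbxo21, of a ubiquitin ligase, was at 15.2 and 14.3, and Eif1b, close to the start-site factor Eif1, at 13.8 and 15.2, both with 0 in 48p-HFSCs. Tram1, of the translocon, was at 12.2 in each 10p library, then 0.043 and 0.

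Snx25, Ift27, Pacs1, Map1lc3a, Serpina3b, Exo5, Rufy3, Elavl4, Lbp, Rab12, Nrsn2 and Sept5 lay between 5.19 and 12.9 FPKM in 10p-HFSCs. Of these 12 genes, Pacs1 and Exo5 were above 0 in one 48p library and Rufy3 in both. Lbp binds bacterial lipopolysaccharide, and its 10p values were 9.24 and 5.44. Map1lc3a is an Atg8 protein of autophagy, and its 10p values were 6.56 and 11.02. These 2 genes and Samd12 were among the 7 whose 10p libraries differed by over 1.5.

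The last 8 are short non-coding rows and genes of unclear role. Snora15 was at 11.1 and 15.5 FPKM in 10p-HFSCs and lies inside Cct6a, and Gm12238 was at 8.75 and 12.2 and lies inside G3bp1, each on the same strand. Their hosts were at 94.3 FPKM or more in every library, so reads of host and inner row cannot be told apart with confidence. Cct6a was itself called lower, from 265 and 254 in 10p- to 94.3 and 130 in 48p-HFSCs (log2 difference -1.22, limma adjusted p = 0.0475). G3bp1 was not called (log2 difference -0.38, limma adjusted p = 0.396). Gm1673, Gm684, 1500011B03Rik, 1190002N15Rik and Samd12 had 10p values between 5.81 and 16.6, and of these 1500011B03Rik alone was above 0 in 48p-HFSCs, at 0.052. In all, 12 of the 59 genes overlapped another row. Without the short non-coding rows the set holds 56 genes.

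The question whether genes of the same kind moved with the set was addressed with genes that did not meet its limits. limma on log2(FPKM + 1), with Benjamini-Hochberg adjustment over 11018 genes, called 1008 genes lower (9.15%) and 1189 higher (10.8%) in 48p-HFSCs at an adjusted p under 0.05 and a difference of at least 1. Relatives, rows with the same symbol stem as one of the 59, numbered 225 in 36 families, and 126 were tested. Of these, 18 were lower (14.3%, beside 9.15% of all genes) and 9 were higher (7.14%, beside 10.8%), and the median log2 difference was 0.01, beside -0.03 over all genes. In 13 of the 29 families with a tested relative, no relative was called in either direction. Without replicate 1 or 2 of 10p-HFSCs, 4 and 3 relatives were called lower, partly because genes on in 10p-HFSCs alone then miss the filter of an FPKM of 1 in 2 libraries.

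**Figure D2:**
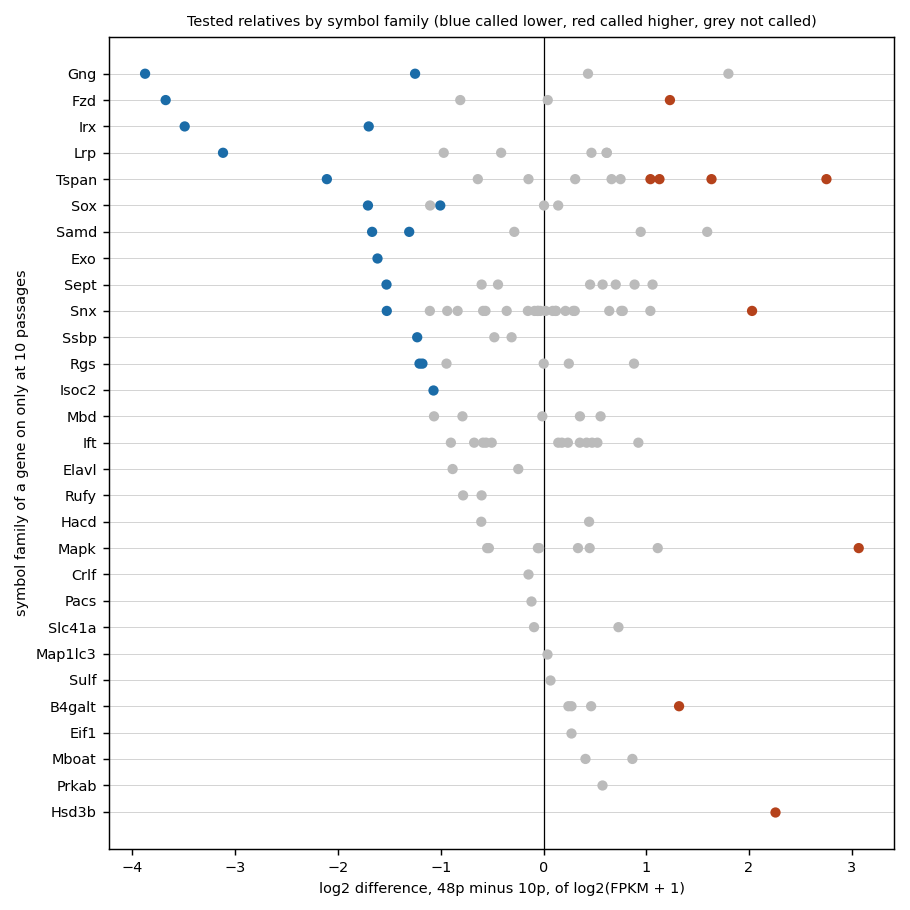
Difference of log2(FPKM + 1), 48p minus 10p, for each tested relative (a point), by symbol family, ordered by the lowest relative. Blue points were called lower, red points higher and grey points neither. The Gng, Fzd, Irx and Lrp families hold the relatives that fell furthest, from -3.88 to -3.12.

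The Wnt receptors other than Fzd1 and Fzd2 went in several directions. Fzd7 was at 42.4 and 44.6 FPKM in 10p- and 3.12 and 1.93 in 48p-HFSCs, a log2 difference of -3.68 ± 0.29 (SE, n = 2 and 2, limma adjusted p = 0.00124). The co-receptor Lrp5 fell from 14.7 and 10.7 to 0.831 and 0.337, by -3.12 ± 0.31 (limma adjusted p = 0.00234). Fzd3 was near 0 in 10p-HFSCs and rose to 1.65 and 1.10, by 1.23 ± 0.23 (limma adjusted p = 0.0180), a call that was lost without either 10p library. Fzd6, with 35.7 and 25.9 in 10p- and 48.2 and 5.53 in 48p-HFSCs, Lrp6 and Ryk did not pass the test.

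Irx2 and Irx5, Iroquois genes that were on in 10p-HFSCs, were both lower in 48p-HFSCs. Irx5 was at 11.2 and 11.01 FPKM and then at 0.161 and 0, a log2 difference of -3.49 ± 0.25 (limma adjusted p = 0.00110), just outside the limits of the set. Irx2 fell from 25.5 and 24.6 to 6.34 and 7.73, by -1.70 ± 0.26 (limma adjusted p = 0.00896). Irx3, Irx4 and Irx6 were at or near 0 in all libraries. The list of homeobox and T-box factors outside the Hox clusters includes these genes and was chosen with earlier results of these data known. In it, 6 of 9 tested genes were lower (66.7%, beside 9.15% of all genes) and 0 were higher (beside 10.8%). Irx2 and Irx5 are among the 6. Barx2, with 40.4 and 51.2 and then 2.23 and 3.16, fell furthest, and the others included Pitx1, Dlx1, Irx2 and Irx5.

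Gamma subunits of G proteins were likewise uneven. Gng12 fell from 15.3 and 15.8 FPKM to 0.148 and 0.105, a log2 difference of -3.88 ± 0.25 (limma adjusted p = 0.000916), and Gng2 by -1.25 (limma adjusted p = 0.0261). Gng5, the most abundant, was at 299 and 453 in 10p- and 942 and 1750 in 48p-HFSCs and did not pass the test (limma adjusted p = 0.071).

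For other genes of the set, a relative by symbol was higher, which does not mean that it has the same activity. Mapk13, the delta isoform of p38, went from 0.619 and 1.27 FPKM to 8.11 and 27.3, a log2 difference of 3.07 ± 0.56 (limma adjusted p = 0.0165), while Mapk14 was between 25.3 and 32.7 in all libraries. Hsd3b7 went from 2.59 and 2.91 to 19.7 and 14.3, by 2.25 ± 0.29 (limma adjusted p = 0.00513). The tetraspanins went both ways: Tspan5 went from 12.4 and 13.6 to 84.1 and 103, by 2.75 ± 0.25 (limma adjusted p = 0.00180), and Tspan15 fell from 3.32 and 3.51 to 0.017 and 0.031, by -2.11 ± 0.23 (limma adjusted p = 0.00286). Among the other relatives with the largest called differences, Sox9 (-1.71) and Samd14 (-1.67) were lower, and Snx32 (2.03), Tspan1 (1.63), B4galt3 (1.32) and Tspan9 (1.13) were higher on the log2 scale. The calls of Samd14, Tspan1, B4galt3 and Tspan9 were lost without either 10p library, that of Snx32 without the first, and that of B4galt3 also without the second 48p library. After rescaling to TPM the calls of Hsd3b7, Samd14, Tspan1, B4galt3 and Tspan9 were lost. With no filter on low values those of Mapk13, Sox9, Samd14, Tspan1 and B4galt3 were lost.

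Genes of the same complex or pathway were taken from short lists written after many of these values had been seen, and their counts are no independent evidence. Of 79 tested, 11 were lower (13.9%, beside 9.15% of all genes) and 7 higher (8.86%, beside 10.8%). The lower ones overlap the other counts: Fzd7, Lrp5, Irx2, Irx5, Gng2, Gng12 and Ssbp3 were also counted among the relatives. Tst was also counted among the genomic neighbours given below. Of the sulfur enzymes beside Mpst, Tst was at 1.86 and 1.99 FPKM and then at 0 (log2 difference -1.55, limma adjusted p = 0.00672), Sqrdl fell by -2.05 (limma adjusted p = 0.00487) and Ethe1 rose by 2.46 (limma adjusted p = 0.0147). Of the AMP-activated kinase subunits beside Prkab1, none of the 5 tested was called, and Prkab2, the other beta subunit, was at 2.19 and 1.95 and then 4.51 and 2.76. Tslp, the ligand of the receptor that contains Crlf2, went from 0.157 and 0.439 to 79.9 and 180 (log2 difference 6.55 ± 0.43, limma adjusted p = 0.000916). The second chain of that receptor, Il7r, was at or near 0 in all libraries.

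**Figure D3:**
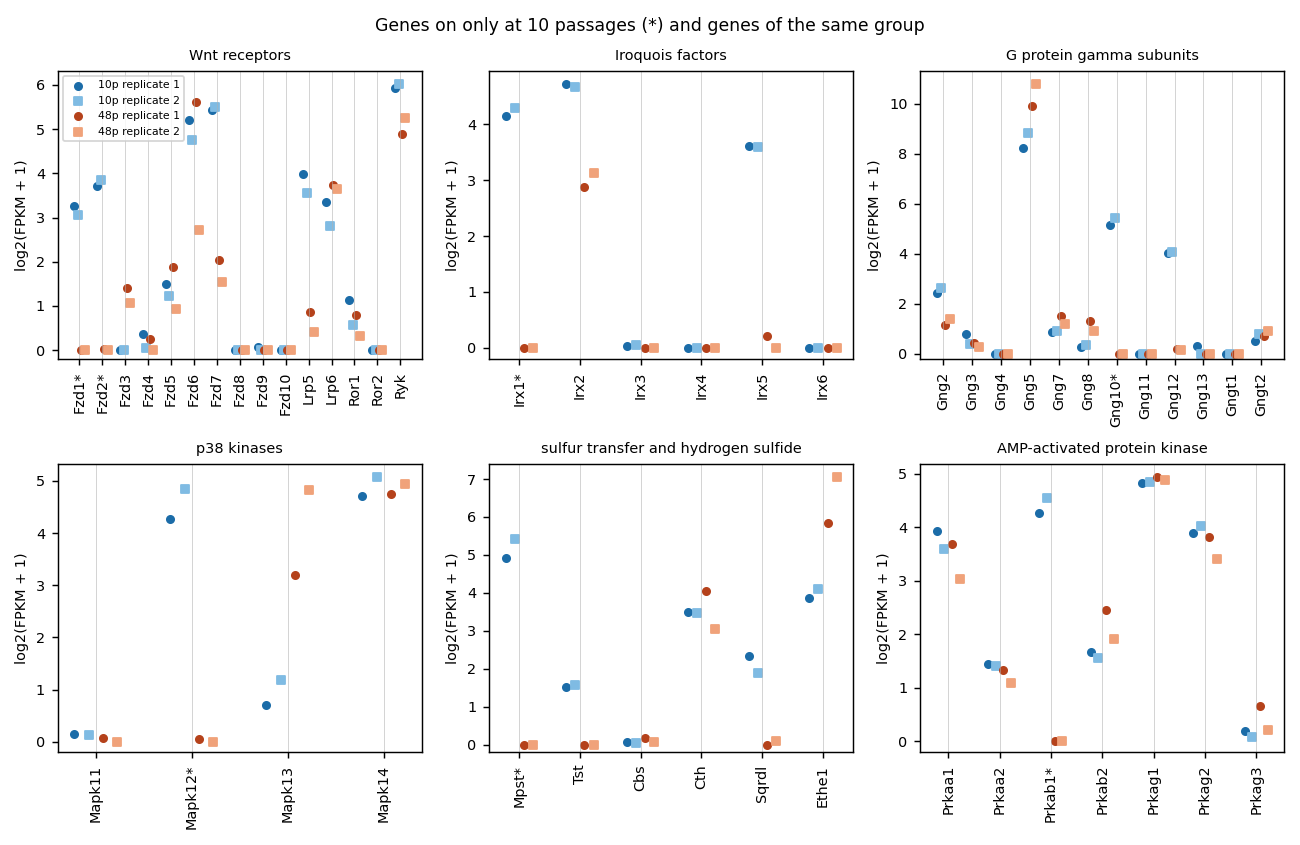
log2(FPKM + 1) of the genes on only at 10 passages (marked *) and of other genes of 6 groups, in each library; blue is 10p-HFSCs, red and orange 48p-HFSCs, circles replicate 1 and squares replicate 2. Fzd7, Irx5 and Gng12 lie low in 48p-HFSCs beside the marked genes, while Mapk14 and Prkag1 lie close together in all 4 libraries.

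The 59 genes were spread over 20 chromosomes and no 2 of them lay within 200 kb of each other. Chromosome 5 held 9 (15.3%, against 7% of the other rows above 5 in both 10p libraries). Genes within 50 kb numbered 161, of which 83 were tested. Of these, 12 were lower (14.5%, beside 9.15% of all genes) and 5 higher (6.02%, beside 10.8%) in 48p-HFSCs. The lower ones include Cct6a, which contains Snora15, and Isoc2b and Sox12, which were also counted among the lower relatives. Their median log2 difference was -0.08, beside -0.03 over all genes. Without replicate 1 or 2 of 10p-HFSCs, 2 and 5 neighbours were called lower.

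The closest separate neighbours differed among themselves. Chrnb1, 13 bases from Zbtb4, had a log2 difference of -0.28 (limma adjusted p = 0.615) and Pigu, 170 bases from Map1lc3a, one of 0.13 (limma adjusted p = 0.716), and neither passed the test. Tst, 509 bases from Mpst on the other strand of chromosome 15, was lower as given above. Pou2af1, 30178 bases from Gm684, fell from 13.3 and 17.5 FPKM to 3.97 and 0.753, a log2 difference of -2.46 ± 0.52 (limma adjusted p = 0.0256). Gbas, 36219 bases from Snora15, fell by -2.09 (limma adjusted p = 0.0191). The next largest falls among neighbours were those of Nelfa, Fgf11, Iqce, D10Wsu102e and Itch, from -1.65 to -1.28, and Rab1b, Plxnb2 and Cdk14 were higher by 1.29, 1.26 and 1.09. Without either 10p library the calls of Iqce, D10Wsu102e, Rab1b, Plxnb2 and Cdk14 were lost, without the first those of Nelfa and Itch, and without the second 48p library that of Plxnb2. Among these neighbours, the calls of Pou2af1, Gbas, Iqce, Itch, Rab1b and Plxnb2 were lost with no filter on low values. Those of Iqce, Itch, Rab1b and Plxnb2 were also lost after rescaling to TPM. In the other direction, Entpd3, an ectonucleotidase gene 44488 bases from Eif1b on the same strand, was at 0 in both 10p libraries and at 9.82 and 17.7 in 48p-HFSCs (limma adjusted p = 0.00161), so that a gene that was off at 10 passages and on at 48 lay beside one with the opposite values.

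**Figure D4:**
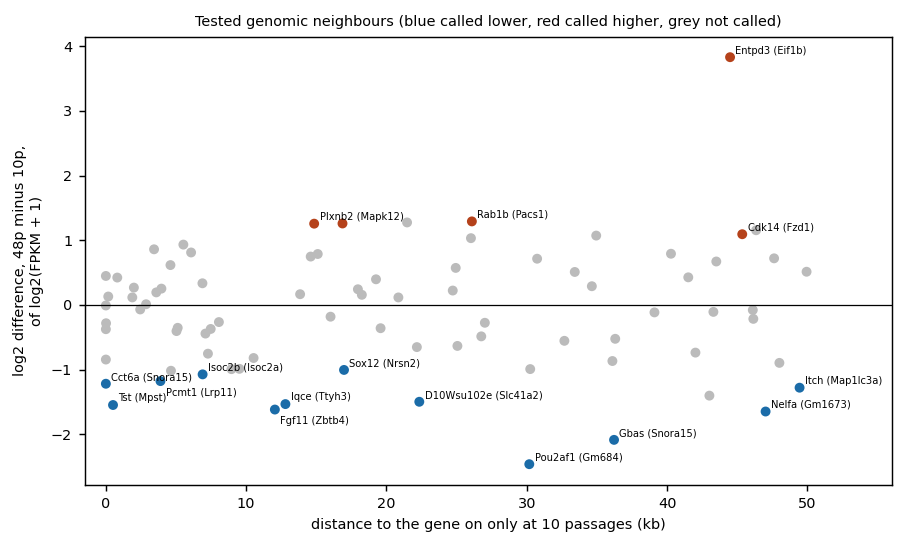
Difference of log2(FPKM + 1), 48p minus 10p, for each tested gene within 50 kb of one of the 59 genes, against its distance in kb; names give the neighbour and, in parentheses, the gene of the set (1 red point is unnamed). Blue points were called lower (12), red points higher (5) and grey points neither.

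The longest transcript of the 59 genes had a median length of 2525 bases, against 3255 for the other rows above 5 in both 10p libraries. RefSeq upstream sequences were matched for 43 of the 59 genes (72.9%). As this is below 80%, a comparison of CpG content or motifs with other genes is void, and the 250-base windows shown above stand as examples only.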

How the data were processed

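RNA of 4 libraries, 2 of 10p- and 2 of 48p-HFSCs, was prepared with a stranded mRNA kit and read over 101 bp. The authors mapped reads to mm10 and deposited 1 FPKM value per gene symbol and library. Per the labels' processing notes, TopHat2 2.1.1, Bowtie2 2.2.8, SAMtools 0.1.18 and Cuffdiff 2.2.1 were used; the study's methods give other versions of some of these tools, and the strand setting and annotation are not given in the sources used here. FPKM values are not counts, so no count model was used, and precision at low values is limited by an unknown depth.

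Groups were compared with limma 3.58.1 (R 4.3.3; lmFit and eBayes with a trend) on log2(FPKM + 1) for genes reaching an FPKM of 1 in 2 or more libraries, with Benjamini-Hochberg adjustment. An exact permutation test of 2 against 2 libraries, two-sided, cannot go below 0.333 and was not used. Positions and lengths came from GENCODE M21 (GRCm38), with Python 3.11 and pandas 2.3.3. Relatives shared a symbol stem of at most 30 rows, and neighbours lay within 50 kb. The limma script was tested on simulated data under 2 assumptions on the spread of each gene, and how many changes it recovered depended strongly on which was used. With each gene's own spread, 46% of log2 changes of 3 and 0.502% of those of 1.5 were recovered, and 1.06% of calls were false. With the spread that limma moderates across genes, the values were 95.9%, 59.1% and 7.92%. The second was added after the first had recovered few, and both were kept.

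Genes named were the 25 members with the highest mean in 10p-HFSCs, members of the marker and pathway lists, the genes nearest each limit, the 8 largest called differences in each direction among relatives and among neighbours, and up to 4 called genes per list. Other members, genes of the same pathways and marker genes were named after their values were seen. Members and lists were chosen with earlier results of these data known. The lists of genes of the same pathways, the grouping by role, the upstream windows and their choice, and the count of rows that differ between replicates were chosen after values had been seen. Alternatives were another pseudocount, filters, scalings and variance prior, a replicate block, and each library left out. Of the 59 members, 58 are described; 1 member and some other genes are not reported here.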

Additional observations from a re-analysis of the deposited data

How the results depend on the processing

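The set held 122 genes with an upper limit of 2, 22 with an upper limit of 10 and 98 with a lower limit of 0.5. Rescaled to TPM it held 78, of which 58 were among the 59, and Rem2 was lost. Leaving out a library gave between 66 and 81 genes. Over all genes, leaving out a library gave from 217 to 2131 genes lower and from 611 to 1609 higher, so that these counts rest on single libraries. No filter on low values gave 637 lower, and rescaling to TPM 616 higher. For relatives, the counts lower ranged from 3 to 24 and higher from 3 to 14 with a library left out, and 4 were higher after rescaling to TPM and 4 with families of at most 15 rows. For neighbours, leaving out a library gave from 2 to 16 lower and from 1 to 13 higher; no filter gave 2 higher, TPM 1 higher, and a distance of 200 kb 29 lower and 25 higher. Genes of the marker and pathway lists numbered 185 tested, 37 lower (20%, beside 9.15% of all genes) and 41 higher (22.2%, beside 10.8%). They numbered 183 tested and 35 lower without Col1a2 and Phlda2, which met the limits of the set and so had to be lower. With a library left out they ranged from 12 to 55 lower and from 20 to 30 higher, and TPM gave 22 higher. Leaving out a 10p library removes from testing the genes that were on in 10p-HFSCs alone; the cause of the other changes was not tested.

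Of the 29 relatives and neighbours with the largest differences, none changed direction where it was tested. This is no independent support, since the 29 were chosen by their differences in these same libraries. A change of filter or variance prior and the replicate block also leave the difference itself as it was. With a library left out, after rescaling to TPM or with a filter on the mean, some of the 29 missed the filter and were not tested. Without a 48p library these were genes under 1 FPKM in both 10p libraries, such as Entpd3 and Fzd3, so their calls could not be checked there. Calls were lost for 12 with no filter, 10 after rescaling to TPM, 14 and 11 without replicate 1 or 2 of 10p-HFSCs, 2 without replicate 2 of 48p-HFSCs and 2 with a constant variance prior. The labels do not say that libraries of the same number share a culture or day, and there are 2 pairs. Their deviations from the group means correlated over genes (r = 0.4081), and a replicate block in the fit gave 1497 genes lower and 1613 higher, with 14 relatives higher and no call lost among the 29. Low values of replicate 2 of 48p-HFSCs, the shallowest library, are the least precise.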
